A study of Homo sapiens with 6 samples.

Results

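Classical cadherins are the adhesion proteins of adherens junctions, and 7 cadherin genes (CDH1, CDH2, CDH3, CDH4, CDH6, CDH11 and CDH13) are described here out of 52401 genes in the deposited tables. They were chosen by symbol. RNA was compared between lines of MCF10A, an immortalised, non-tumorigenic human mammary epithelial line, with 3 libraries per line. The control line stably expressed mCherry after infection with 1 retroviral vector and puromycin selection. The flotillin line stably co-expressed HA-tagged flotillin 1 and mCherry-tagged flotillin 2 after infection with 2 retroviral vectors and selection with puromycin and hygromycin. Both were grown in the same medium with horse serum, insulin, EGF, hydrocortisone and cholera toxin. Each group is thus a single stable line, so the effect of flotillin cannot be told apart from that of the second vector or of hygromycin, and no source used here says that the libraries of a line came from separate cultures.

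A classical cadherin binds a cadherin of a neighbouring cell through its extracellular repeats in the presence of calcium. Its cytoplasmic tail binds beta-catenin or plakoglobin and, nearer the membrane, delta catenin, and alpha-catenin links this complex to actin. E-cadherin (CDH1) is the main cadherin of luminal epithelium and P-cadherin (CDH3) that of basal mammary cells, whereas N-cadherin (CDH2) is typical of mesenchymal and neural cells. Loss of E-cadherin with gain of N-cadherin is known as the cadherin switch of the epithelial-mesenchymal transition. R-cadherin is encoded by CDH4, K-cadherin by CDH6 and the osteoblast cadherin by CDH11. T-cadherin, the product of CDH13, is held in the membrane by a lipid anchor and lacks the tail that binds catenins, so it is grouped here with the classical cadherins by homology rather than by function.

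Sequence windows around gene starts, from 250 bases before to 50 after, were matched by symbol in RefSeq (build GRCh38) for 2 of the 7 genes, CDH2 and CDH4, with 4 starts in all. CDH1, CDH3, CDH6, CDH11 and CDH13 were not matched. The words outer and inner give only the order of the matched starts of a gene. A matched start need not be the main or the first start of its gene. Windows of CDH2 are shown because it was the member that rose, and a window of CDH4 because it held an E-box, the motif bound by repressors of the ZEB and SNAI families. Capitals mark CCAAT or its reverse complement ATTGG, and the E-box CAGGTG or its reverse complement CACCTG. The windows lie at chr18:28177081-28177380 (minus strand), chr18:28036592-28036891 (minus strand) and chr20:61499171-61499470 (plus strand), in this order.
CDH2 outer start: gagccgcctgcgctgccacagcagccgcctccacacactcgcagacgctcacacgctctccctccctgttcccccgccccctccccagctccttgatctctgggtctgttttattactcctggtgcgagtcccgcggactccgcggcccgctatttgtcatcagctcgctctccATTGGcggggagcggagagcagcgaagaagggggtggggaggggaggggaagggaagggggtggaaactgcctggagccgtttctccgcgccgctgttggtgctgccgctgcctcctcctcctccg
CDH2 inner start: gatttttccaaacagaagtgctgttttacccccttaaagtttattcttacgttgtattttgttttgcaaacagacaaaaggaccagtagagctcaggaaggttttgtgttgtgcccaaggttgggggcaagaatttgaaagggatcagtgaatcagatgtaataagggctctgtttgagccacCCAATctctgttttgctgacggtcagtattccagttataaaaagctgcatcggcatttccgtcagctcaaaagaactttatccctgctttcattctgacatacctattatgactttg
CDH4 outer start: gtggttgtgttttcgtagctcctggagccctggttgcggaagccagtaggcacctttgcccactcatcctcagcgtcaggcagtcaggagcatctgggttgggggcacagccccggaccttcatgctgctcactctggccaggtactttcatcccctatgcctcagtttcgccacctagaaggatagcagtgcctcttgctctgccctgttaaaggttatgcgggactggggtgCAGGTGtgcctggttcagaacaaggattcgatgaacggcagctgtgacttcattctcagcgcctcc

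The outer CDH2 window had a GC content of 67% and 23 CpG dinucleotides, against medians of 58.7% and 14 over 35116 windows of the same length. Its inner window had 40.7% and 4. The motif CAGGTG, searched on both strands, was in neither CDH2 window and in 1 of the 2 CDH4 windows, where it began 16 bases before the start. It was found in 20.6% of all windows. CCAAT, searched on both strands, was found 76 and 67 bases before the outer and inner CDH2 starts, and in 34.6% of all windows. These matches describe letters only and bear on no measurement below.

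FLOT1, the gene of flotillin 1, checked the labels. Its normalized counts were 1898, 1359 and 1166 in the control libraries and 17243, 14137 and 18932 in the flotillin libraries. FLOT2 had authors' means of 3727 and 41052. Counts per gene do not separate the introduced from the endogenous transcripts. The libraries held between 18647386 and 19776803 recovered reads. Normalized counts are reads divided by the library's size factor, a scale for depth. The libraries carry no replicate number and are called 1 to 3 within a group in order of falling size factor. A gene is said to rise or fall where its adjusted p was under 0.05 in the authors' deposited table of group means. Of 19733 genes tested there, 23.6% passed, 11.6% higher and 12% lower in the flotillin line. The control line held markers of both mammary epithelial lineages. Basal KRT5 and EGFR had authors' means of 48381 and 27098, and basal KRT14 had 1249. Luminal MUC1 and EPCAM had means of 12384 and 4607, while the oestrogen receptor gene ESR1 had 11.2. Of 11 basal markers 9 fell and 0 rose, but KRT5 had a mean of 67351 in the flotillin line and did not pass (adjusted p = 0.240).

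Transcripts of the epithelial cadherins fell in the flotillin line and N-cadherin transcripts rose, while the other 4 genes did not pass the test. Between the authors' means CDH1 fell 223-fold and CDH3 13.9-fold, and CDH2 rose 3.49-fold. Folds given in this way are ratios of means, and the authors' log2 fold changes are separate deposited values. Of the 7 members, all tested, 2 fell and 1 rose, against 12% and 11.6% of all tested genes. The authors' Tuxedo table (5 members tested) and limma (6 members) called the same 3. The Tuxedo table called 16.9% of all genes, 6.93% higher and 10% lower, and limma 23.4%, 12.2% higher and 11.1% lower. Without library 3 of both lines limma called 44.2% of all genes, 23.7% higher and 20.6% lower, and with a term for library 3 it called 46%, 24.6% higher and 21.5% lower. These were also the 3 members whose libraries did not overlap between groups, a pattern seen in 45.2% of 15907 genes with a mean of at least 10. In bulk RNA, fewer cells that make a transcript and less transcript per cell cannot be told apart.

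CDH1 (ENSG00000039068, chromosome 16, 68771128 to 68869444 in GRCh37, as are all gene positions) had normalized counts of 15290, 16901 and 20532 in the control libraries and 86.0, 111 and 39.1 in the flotillin libraries. Every control library was far above every flotillin library, with whole reads of 16117 to 20797 against 38 to 110. The group values were 17575 ± 2685 and 78.8 ± 36.7 (SD, n = 3). The authors' deposited table gives a log2 fold change of -7.31 (adjusted p = 3.13e-90), which placed CDH1 at rank 4 among falls and at rank 6 by adjusted p. Ranks among falls and rises use this deposited value, which is not the log2 of the ratio of means. By the ratio of means OVOL1 (272-fold) and KLK7 (291-fold) fell further than CDH1, at deposited values of -4.74 and -4.11. A limma fit of the recovered libraries gave -7.90 (95% interval -8.75 to -7.05, adjusted p = 5.3e-05). The remaining flotillin transcripts varied 2.85-fold between libraries, against 1.34-fold in the control line. Library 3 of the flotillin line was the lowest. Without flotillin library 2 the limma value was -8.21 and without flotillin library 3 it was -7.46.

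CDH3 (ENSG00000062038, chromosome 16, 68678151 to 68732971) encodes P-cadherin. Its normalized counts were 21075, 16490 and 24055 in the control libraries. In the flotillin libraries they were 1482, 1382 and 1575, a span of only 1.14-fold. The group values were 20540 ± 3811 and 1480 ± 96.5 (SD, n = 3), with an authors' log2 fold change of -3.69 (adjusted p = 1.07e-51), rank 140 among falls. CDH3 therefore kept well over 1000 normalized counts in each flotillin library where CDH1 kept at most 111. The ratio of CDH3 to CDH1 counts was 1.38, 0.976 and 1.17 in the control libraries and 17.2, 12.4 and 40.3 in the flotillin libraries. On the log2 scale this ratio was 4.14 higher in the flotillin line (exact two-sided permutation test, p = 0.1, the smallest that 3 against 3 libraries can give).

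CDH2 (ENSG00000170558, chromosome 18, 25530930 to 25757410) encodes N-cadherin. It had normalized counts of 395, 727 and 752 in the control libraries and 1985, 1880 and 2681 in the flotillin libraries. The lowest flotillin library was above the highest control library. The group values were 625 ± 200 and 2182 ± 436 (SD, n = 3), with an authors' log2 fold change of 1.72 (adjusted p = 1.69e-06), rank 349 among rises. CDH2 transcripts were thus also present in the control line. A noncoding transcript at the CDH2 locus, AC015933.2, rose as well, from an authors' mean of 3.57 to 22.6 (adjusted p = 0.00164). No source used here states whether reads were counted by strand, so reads of overlapping transcripts are uncertain, although those of AC015933.2 were few beside CDH2.

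**Figure D1:**
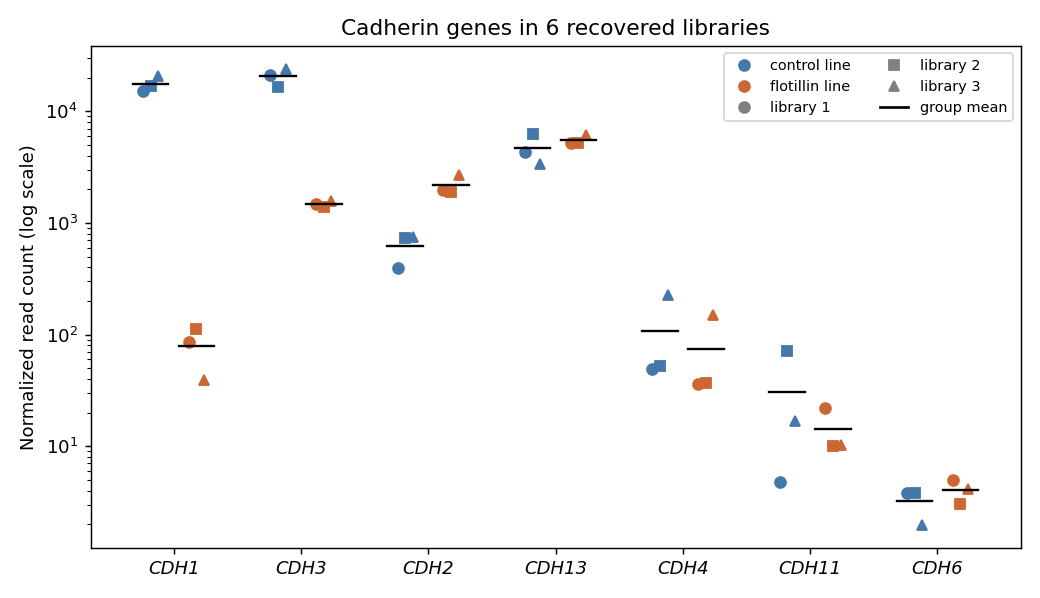
Normalized read counts (log scale) of the 7 cadherin genes, with 1 point per recovered library, marker shape for the library and a black line for the group mean. CDH1 and CDH3 lie far lower and CDH2 higher in all 3 flotillin libraries, whereas the groups overlap for CDH13, CDH4, CDH11 and CDH6.

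The T-cadherin gene CDH13 (ENSG00000140945, chromosome 16) lay at 4361, 6311 and 3405 normalized counts in the control libraries and 5208, 5216 and 6180 in the flotillin libraries. The groups overlapped, and the control libraries spread more widely than the flotillin libraries. Group values of 4693 ± 1481 and 5535 ± 559 (SD, n = 3) gave an authors' log2 fold change of 0.23 (adjusted p = 0.602). The limma interval for its change ran from -0.29 to 0.85 on the log2 scale, and its upper end lay below the 1.72 of CDH2. Its position in the deposited table, 82882260 to 84036381, is a locus joined with several neighbouring genes.

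CDH4 (ENSG00000179242, chromosome 20, 59793044 to 60512277) encodes R-cadherin. Its normalized counts were 49.3, 52.6 and 224 in the control libraries and 36.0, 36.5 and 151 in the flotillin libraries. In both lines library 3 stood apart, at 4.40 times the mean of libraries 1 and 2 in the control line and 4.17 times in the flotillin line. Ratios of at least 4 in both lines were found for 103 of 15907 genes (0.648%), and ratios above 2 in both lines for 551 (3.46%). This spread between libraries was wider than the difference between lines, which had an authors' log2 fold change of -0.44 (adjusted p = 0.622). With a term for library 3, chosen after these values were seen, the limma estimate of -0.51 had an interval of -1.04 to 0.02 (adjusted p = 0.103), in place of -2.28 to 1.26. The part of whatever set library 3 apart in these values was not tested.

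CDH11 (ENSG00000140937, chromosome 16, 64977656 to 65156101), the osteoblast cadherin gene, was scarce and uneven. Reads numbered 5, 74 and 17 in the control libraries and 22, 10 and 10 in the flotillin libraries. A single control library held most of the control reads, and its span within that line was 14.9-fold. The authors' log2 fold change of -0.84 did not pass (adjusted p = 0.360), and the limma value changed sign to 0.49 without control library 2. CDH6 (ENSG00000113361, chromosome 5, 31094084 to 31329253), the K-cadherin gene, had 4, 4 and 2 reads in the control and 5, 3 and 4 in the flotillin libraries. It had an authors' log2 fold change of 0.23 (adjusted p = 0.846), and it was too low for the limma fit. A difference in CDH6 was not detectable at this depth.

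**Figure D2:**
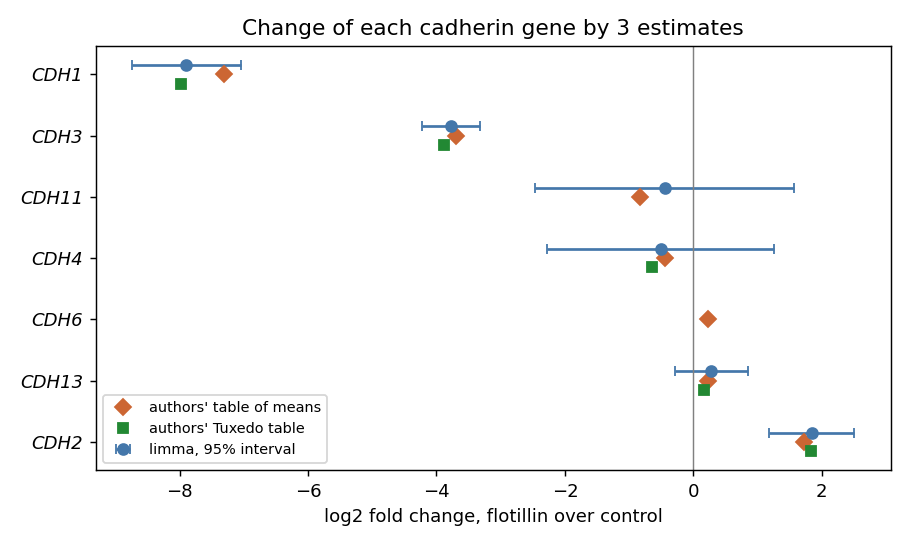
Change from control to flotillin line (log2 fold) of each gene in the authors' table of means (diamonds), the authors' Tuxedo table (squares, 5 tested genes) and limma on the recovered libraries (circles, 6 genes, bars are 95% intervals). The estimates for CDH1, CDH3 and CDH2 lie clear of 0 in all 3 sources, and the limma intervals of CDH13, CDH4 and CDH11 span it.

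Levels of different genes were compared per transcript length, with the authors' FPKM (fragments scaled to transcript length and library depth) of each line. To show the spread, each FPKM was split over the libraries in proportion to normalized counts. In the control line the order was CDH3 (229 FPKM), CDH1 (168), CDH13 (67.8), CDH2 (6.99), CDH4 (1.59), CDH11 (0.163) and CDH6 (0.0139). The ranges of CDH3 (184 to 268 FPKM) and CDH1 (146 to 196 FPKM) overlapped between libraries, but CDH3 was above CDH1 within each library. The values of CDH3 and CDH1 were 235 and 146 in control library 1, 184 and 161 in library 2, and 268 and 196 in library 3. All other neighbours in the control order were apart. In the flotillin line the order became CDH13 (76.2 FPKM), CDH2 (25.0), CDH3 (15.5), CDH4 (1.02), CDH1 (0.666), CDH11 (0.0753) and CDH6 (0.0167). Here the libraries of CDH4 (0.493 to 2.07 FPKM) and CDH1 (0.330 to 0.941 FPKM) overlapped and the other neighbours were apart.

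N-cadherin thus passed both epithelial cadherins in level, but its gain was small beside their loss. CDH1 and CDH3 together were lower by 380 FPKM in the flotillin line, and CDH2 was higher by 17.98 FPKM, so the loss was 21.2 times the gain. The CDH2 level of the flotillin line was 14.9% of the CDH1 level of the control line. Summed over the 7 genes, the level was 473 FPKM in the control and 118 FPKM in the flotillin line, 3.99-fold lower. The split sums were 446 to 525 FPKM in the control libraries and 109 to 135 FPKM in the flotillin libraries, without overlap. T-cadherin made up 9.37% to 20.5% of the summed level in the control libraries and 63.2% to 65.7% in the flotillin libraries. CDH2 made up 0.984% to 1.83% and 19.7% to 22.8%. The most abundant cadherin transcript of the flotillin line was therefore CDH13, whose own level did not pass the test.

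**Figure D3:**
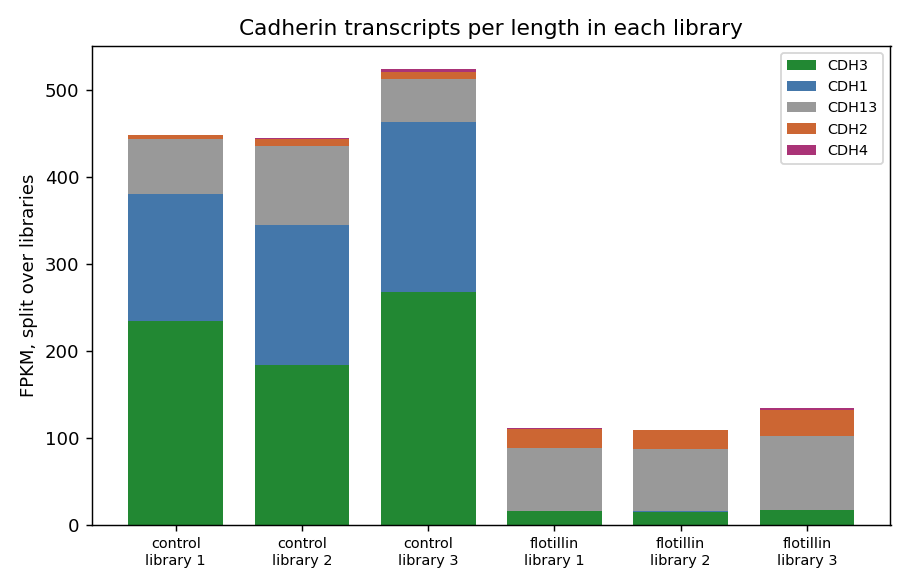
FPKM of the cadherin genes stacked for each library (y axis starts at 0, authors' group FPKM split in proportion to normalized counts; CDH11 and CDH6 are too low to draw). Control bars of 446 to 525 FPKM are mostly CDH3 and CDH1, and flotillin bars of 109 to 135 FPKM mostly CDH13 and CDH2.

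The ratio of CDH2 to CDH1, a common measure of the switch, was formed within each library. Counts of CDH1 were 38.7, 23.3 and 27.3 times those of CDH2 in the control libraries. In the flotillin libraries counts of CDH2 were 23.1, 16.9 and 68.6 times those of CDH1. The log2 ratio of CDH2 to CDH1 was -4.86 ± 0.38 in the control and 4.88 ± 1.05 in the flotillin line (SD, n = 3, pseudocount 1). The difference of 9.74 had p = 0.1 in an exact two-sided permutation test, the smallest this design allows. Most of it came from CDH1, which contributed -7.90 on the limma scale against 1.84 for CDH2.

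CDH1 and CDH3 are neighbours, with 38.2 kb between their loci, and both fell. Of 11 other protein-coding genes tested within 500 kb of the CDH1 start, 3 fell and 0 rose, against 12% of all tested genes that fell. The 3 were HAS3, a hyaluronan synthase gene (log2 fold change -2.79), SLC7A6, an amino acid transporter gene (-1.17), and SLC7A6OS (-0.88), in the authors' deposited table. SLC7A6 and SLC7A6OS share a joined position, so they do not count as separate loci. ESRP2, whose locus ends just outside this window, also fell (log2 fold change -1.39, adjusted p = 3.9e-05), so the count depends on the window. For HAS3 the authors' Tuxedo table gives a q-value of 0.364. The nearest flanking genes did not pass. ZFP90, beyond CDH3, had a log2 fold change of -0.50 (adjusted p = 0.394), and TMCO7, beyond CDH1, had 0.40 (adjusted p = 0.294). The median log2 fold change over the 11 genes was 0.15.

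**Figure D4:**
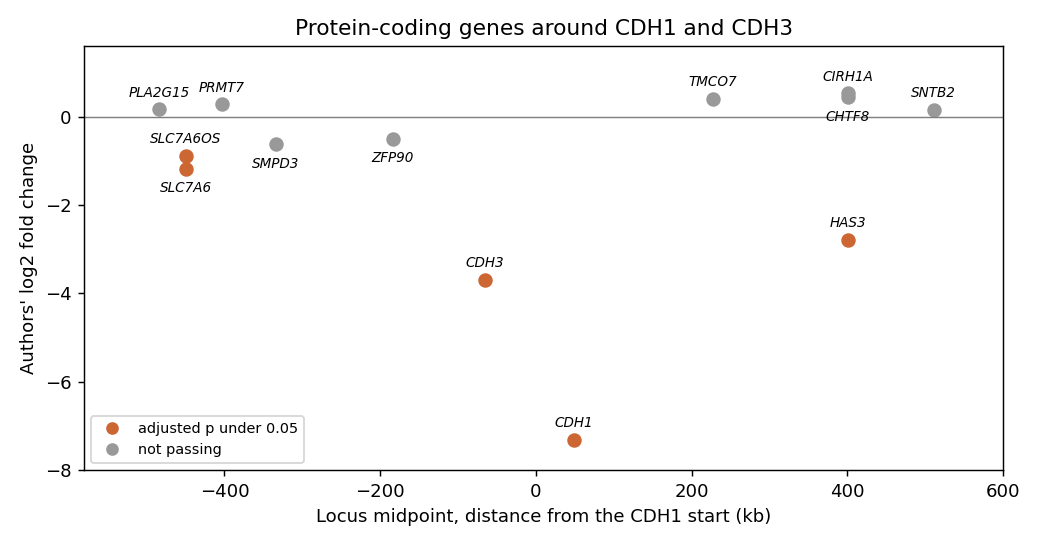
Authors' log2 fold change of the 13 protein-coding genes with reads within 500 kb of the CDH1 start, by distance of the locus midpoint in kb; joined loci share a midpoint. CDH1 and CDH3 are the lowest points, and ZFP90 and TMCO7 beside them lie near 0.

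Catenins are the cytoplasmic partners of the cadherins. Of 6 tested catenin genes 0 passed in either direction, with a median log2 fold change of 0.34, against 23.6% of all tested genes that passed and a median of -0.04. The beta-catenin gene CTNNB1 had normalized counts of 5430, 7345 and 8546 in the control libraries and 8847, 9883 and 9826 in the flotillin libraries (authors' log2 fold change 0.41, adjusted p = 0.234). All flotillin libraries were above all control libraries, and the limma interval ran from -0.04 to 0.93. The alpha-catenin gene CTNNA1 had authors' means of 11802 and 17761 (log2 fold change 0.56, adjusted p = 0.174). The delta catenin gene CTNND1 had means of 7370 and 6025 (-0.28, adjusted p = 0.442). The plakoglobin gene JUP, whose product also serves desmosomes, had means of 4983 and 2469 (-0.93, adjusted p = 0.0710). The sources differ for JUP, since the authors' Tuxedo table gives it a q-value of 0.00651. At an unadjusted p under 0.05, 1 catenin gene, JUP, passed in the authors' deposited table, as did 35% of all tested genes. With limma 0 passed with all libraries and 2 rises passed without library 3 of both lines.

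Linkers and nectins join the junction to actin and to neighbouring cells. Of 10 tested genes of this list 5 fell and 1 rose, against 12% and 11.6% of all tested genes. Their median log2 fold change was -0.73. PVRL1, the nectin 1 gene, fell 20.1-fold. Its normalized counts were 9209 ± 2563 in the control and 458 ± 207 in the flotillin line (SD, n = 3). ARVCF, a relative of delta catenin, fell 4.82-fold, LIMA1, an actin-bundling linker gene, 2.80-fold, and MLLT4, the afadin gene, 2.17-fold. For ARVCF the authors' Tuxedo table gives a q-value of 0.878. PVRL4, another of the falls, did not pass with limma (adjusted p = 0.0749). The rise was PVRL3 (adjusted p = 0.0458). It passed neither in the authors' Tuxedo table (q-value 0.330) nor with limma (adjusted p = 0.0531). Among 13 other classical cadherin genes, 5 had an adjusted p and 0 passed in the authors' deposited table. At an unadjusted p under 0.05, which 35% of all tested genes had, there was 1, CDH26 (log2 fold change -1.37, adjusted p = 0.0932). Limma called 0 of these genes with all libraries. CDH24 was the most abundant of them, at authors' means of 229 and 252.

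Of 11 tested genes listed as repressors of CDH1, 4 rose and 1 fell (median log2 fold change 0.64), against 11.6% and 12% of all tested genes. The action of each listed gene on CDH1 was not tested. ZEB1 had normalized counts of 157, 178 and 132 in the control libraries and 874, 720 and 1132 in the flotillin libraries, a rise of 5.83-fold. ZEB2 rose 4.97-fold, from 151 ± 19.0 to 749 ± 115 (SD, n = 3). FOXC2 rose 4.13-fold and TWIST2 2.85-fold. The SNAI genes did not pass. SNAI2 had 651 ± 166 and 1066 ± 407 normalized counts (SD, n = 3, adjusted p = 0.136) and SNAI1 13.8 ± 10.7 and 22.4 ± 9.18 (SD, n = 3, adjusted p = 0.547). KLF8 was the fall, 2.35-fold, and limma did not call it (adjusted p = 0.0649).

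Of 14 tested epithelial transcription factor and splicing regulator genes, 9 fell and 0 rose (median log2 fold change -2.05). The shares over all tested genes were 12% and 11.6%. The splicing regulator gene ESRP1 fell 249-fold. It had 3026 ± 505 normalized counts in the control and 12.2 ± 1.62 in the flotillin line (SD, n = 3). ELF3 fell 91.3-fold and the basal lineage factor gene TP63 69.0-fold. OVOL1 had 91.8 ± 80.2 normalized counts in the control line (SD, n = 3) and 1 read in all flotillin libraries together. For ELF3 and OVOL1 the authors' Tuxedo table gives q-values of 0.328 and 0.356.

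Proteases and trafficking proteins that shed or recycle cadherins gave 6 falls and 2 rises among 16 tested genes (median log2 fold change -0.06). Over all tested genes 12% fell and 11.6% rose, so the rises were near that share. ADAM10, the main sheddase of E-cadherin and N-cadherin, fell 2.01-fold, although the authors' Tuxedo table gives it a q-value of 0.0547. It had 7224 ± 1076 normalized counts in the control and 3586 ± 675 in the flotillin line (SD, n = 3). The kallikrein gene KLK7 went from 394 ± 388 to 1.35 ± 0.585 (SD, n = 3). MMP9, a gelatinase gene, had a control mean of 5.85 and no flotillin reads (adjusted p = 0.0266). The rises were RAB11A (1.77-fold), whose product recycles E-cadherin, and the exocyst gene EXOC2 (1.47-fold). For EXOC2 the log2 fold change in the authors' Tuxedo table is 0.08 (q-value 0.951). N-cadherin partners and mesenchymal markers gave 6 rises and 1 fall among 10 tested (median log2 fold change 1.39). The fall was SPARC, with authors' means of 4707 and 2465 (log2 fold change -0.88, adjusted p = 0.0457). It passed in the authors' Tuxedo table (q-value 0.00695) but not with limma (adjusted p = 0.0521). For the rises ACTA2 and PDGFRB the authors' Tuxedo table gives q-values of 0.209 and 0.259. FN1, the fibronectin gene, rose 28.0-fold and VIM, the vimentin gene, 3.67-fold between the authors' means, and MMP2 rose 10.9-fold and S100A4 4.71-fold. FGFR1, whose product N-cadherin is known to bind, had means of 369 and 358 (adjusted p = 0.936).

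**Figure D5:**
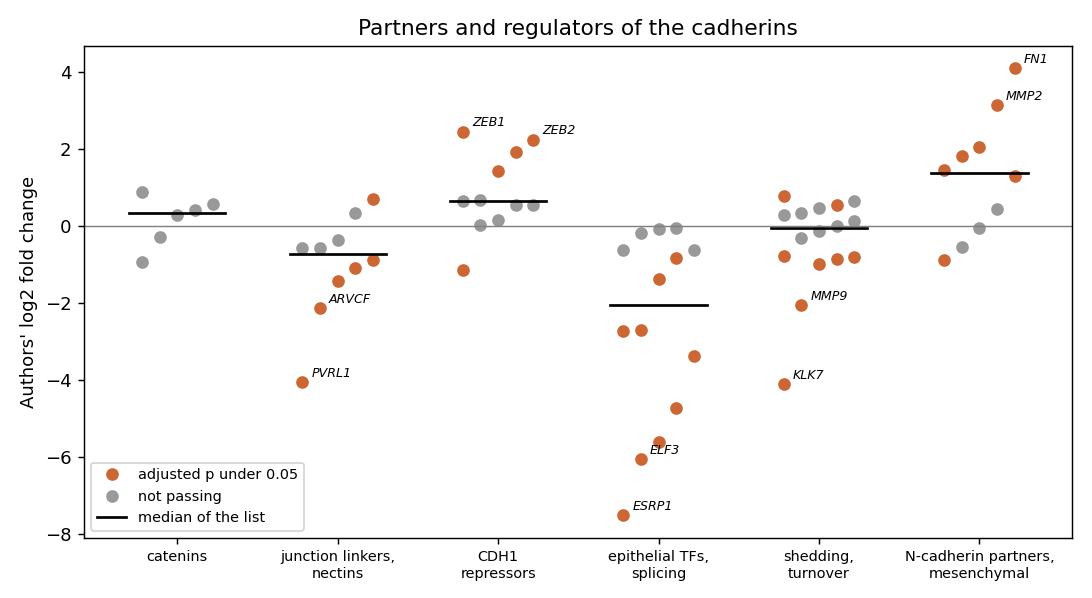
Change from control to flotillin line (authors' log2 fold) of each tested gene of 6 lists (points), with the median of the list as a black line. Catenins lie between -0.93 and 0.89 with none passing, epithelial regulators reach from -0.05 to -7.53, and ZEB1 and ZEB2 are the highest of the repressor list.

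Markers of other cells were read beside these results, with 11.6% of all tested genes higher and 12% lower in the flotillin line. Of 6 tested fibroblast markers 3 rose (DCN, LUM and PDGFRB) and 1 fell (COL1A1). For PDGFRB the authors' Tuxedo table gives a q-value of 0.259. DCN, the decorin gene, had authors' means of 4659 and 42467, 9.12-fold higher in the flotillin line and far above the other fibroblast markers together. Among the defining markers, THY1 was at 0 in all libraries and COL3A1 at 0 in the control line. Without DCN, whose reads were not recovered in the flotillin libraries, summed fibroblast markers ran from 553 to 1184 normalized counts in control and from 494 to 1939 in flotillin libraries. Of 4 tested endothelial markers 0 passed, at an unadjusted p under 0.05 as well and with limma, and their summed normalized counts ran from 283 to 966 in control and from 427 to 820 in flotillin libraries. Most of this was KDR, with means of 641 and 588, while the vascular cadherin gene CDH5 had means of 0.956 and 0.333. Immune markers gave 2 falls among 4 tested (CD14 and CSF1R), with CD163, CD3E and MS4A1 among those at 0. Luminal markers gave 4 falls among 9 tested, EPCAM, ERBB3, SLPI and FOXA1, of which FOXA1 did not pass with limma (adjusted p = 0.0844). Luminal KRT8 went the other way, with authors' means of 2043 and 3494. It did not pass (adjusted p = 0.259), although the authors' Tuxedo table called it higher (q-value 0.0338). The luminal marker KRT18 was matched at a locus on chromosome 4 that held no reads, so keratin 18 was not assessed. The part of these markers in the cadherin results was not tested.

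For 6 members (CDH6 was too low), the genes with the most similar profiles over the 6 libraries were found by Euclidean distance between centred log2(normalized count + 1) values among 15906 other genes. For CDH1 they were ESRP1 (distance 0.87), FUT3 (0.89) and LAD1 (1.40), and for CDH3 they were MPZL2 (0.27), MDFI (0.49) and MARVELD3 (0.51). CDH2 was closest to CTB-43E15.3 (0.36), SLC1A1 (0.42) and SYDE1 (0.43). CDH4 was closest to C9orf140 (0.32), C15orf42 (0.37) and GAS2L3 (0.45). Like CDH4, these were highest in library 3 of both lines, as in GAS2L3 with 133, 187 and 799 normalized counts in the control and 143, 108 and 510 in the flotillin libraries. CDH13 was closest to RP11-727A23.1 (0.24), RP5-874C20.3 (0.25) and ZNF829 (0.25), and CDH11 to CTA-246H3.11 (0.85), AL137003.1 (1.19) and RP5-1055C14.7 (1.296).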

How the data were processed

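RNA-seq of 6 libraries (stranded mRNA kit, HiSeq, per the labels' protocols) was deposited as 2 tables of the authors' comparison. The submitters' processing notes name, for the authors' deposited tables, HISAT2 2.1.0, HTSeq 0.9.1, DESeq2 1.18.1 and build GRCh37. No source used here names the annotation release. The deposited signal columns are group means of size-factor-normalized counts, and the deposited log2 fold changes and p-values, raw and adjusted, come from the authors' test. The second table holds the authors' FPKM, log2 fold change, test score and q-values, per the file headers.

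Means are printed with 15 significant digits, so whole reads per library were searched from the steps between low values. A single solution was found for 99.7% of control and 99.7% of flotillin means above 0, and 0 of the means searched (up to 60000) had no solution at all. The 104 genes not solved in both groups hold 21.7% and 20.1% of normalized counts; only the authors' means are given for them. On simulated reads with means of 15000 to 18500 and 18500 to 22000, where CDH1 and CDH3 lie, 98.6% and 93.2% of 500 control means were solved singly, and 0 wrongly. Altered means of that size had a solution by chance in 53.8% and 75.4% of 500 cases, so a solution alone is no check of the method there. Size factors recomputed from the reads differed by at most 0.034%.

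The main test is the authors' adjusted p. As a second fit, limma 3.58.1 under R 4.3.3 (options trend and robust, Benjamini-Hochberg adjustment) was applied to log2(normalized count + 1) of 15907 genes with a mean of at least 10. On data simulated for this comparison over those genes it called 54% of 100 genes changed 2-fold and 99% changed 4-fold, and 3.16% of calls were false. The simulation gave all genes the same relative spread, left all other genes unchanged and held no shift of library 3. These shares therefore need not hold for the real libraries. With 3 libraries per line, p-values measure the spread between these libraries, which may be technical. Alternatives covered pseudocounts, filters, voom, scaling by totals, the Tuxedo table and left-out libraries. Named are all members, 8 catenin and repressor genes, and of each list the 4 largest changes that passed; others were named after their values were seen, and a few that the rule names are not reported here. Members and lists were chosen with earlier results of these data known. Python 3.11.15, numpy 2.4.6, pandas 2.3.3, numba 0.67.0 and matplotlib 3.10.9 were used.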

Additional observations from a re-analysis of the deposited data

How the results depend on the processing

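CDH1, CDH3 and CDH2 kept their direction and passed in each of the 16 alternatives run for each (limma with all libraries, other pseudocounts, filters and scaling, voom, a term for library 3, left-out libraries and the authors' Tuxedo table). Their log2 fold changes ran from -8.21 to -7.34, from -3.93 to -3.66 and from 1.54 to 2.01, with highest adjusted p-values of 0.00164, 0.00117 and 0.0281. Every alternative thus called 2 falls and 1 rise among the members. CDH4, CDH11 and CDH13 passed in none. Their signs turned once each, CDH4 to 0.20 without control library 3, CDH11 to 0.49 without control library 2 and CDH13 to -0.0095 without library 3 of both lines. With single libraries left out CDH4 ran from -1.19 to 0.20 and CDH11 from -1.33 to 0.49. The difference in log2 (CDH2 / CDH1) ran from 9.15 to 10.1 with single libraries left out.

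Counts of passing genes in the other lists moved by over 1.5 times in these cases. By the authors' Tuxedo q-values, 1 catenin gene, 5 epithelial regulators and 4 shedding and turnover genes passed. With limma, 4 N-cadherin partner or mesenchymal genes and 4 basal markers passed; fewer genes were fitted there. Without library 3 of both lines limma called 2 catenin genes, 1 other cadherin (CDH26) and 5 basal markers. With a term for library 3, chosen after seeing the data, it called 1, 1 and 5. No paired analysis was possible because the deposited columns are group means and the recovered libraries carry no replicate number. CDH6, with 2 to 5 reads per library, entered limma only with no filter on low values. Depth limits CDH6 and CDH11.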
